A study of Mus musculus with 27 samples.

Results

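A group of 10 genes that break down heme and move or store iron was followed through CT26 tumors of a study of the m6A RNA methyltransferases Mettl3 and Mettl14. The genes are Hmox1, Blvrb, Slc48a1, Fth1, Ftl1, Tfrc, Slc40a1, Slc11a1, Hp and Lcn2, 10 of the 54752 genes in the deposited count tables, and each was found in both tables by the Ensembl ID of its symbol. Positions are on GRCm38 and follow the GENCODE M21 annotation. The list was selected on measured values, with fold changes and levels of these same libraries already known, among them the Hmox1 level in Mettl14 KO tumors. Their levels and fold changes are therefore a description, and the p-values beside them come from fits over all genes and are not independent support.

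The tumors grew from CT26 cells, a mouse colon carcinoma line, under the skin of the flank of BALB/c mice. The cells had been transduced with a retrovirus and carried a guide RNA against Mettl3 (Mettl3 KO, 5 libraries), a guide RNA against Mettl14 (Mettl14 KO, 5 libraries) or a control guide RNA (control, 5 libraries). All 3 groups thus share the line, the transduction, the Matrigel graft and the host strain. The series' design text places all of them under anti-PD-1 therapy, an antibody that blocks a brake on T cells. The protocols in the labels name antibodies to CTLA-4 and PD1 and an IgG at 200 µg (10 mg/kg) between day 11 and day 23, without saying which tumor had which. The guides act in the tumor cells only, so blood vessels, fibroblasts and immune cells of the host keep both genes. The genotype field of the libraries titled Mettl14 reads Mettl4, and the titles were followed. The labels do not say whether a line is 1 clone and do not tie libraries to animals, so p-values speak for the spread among these libraries alone.

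Heme is the iron-holding ring of hemoglobin and many enzymes. Heme oxygenase, made by Hmox1, opens the ring and frees its iron, and leaves the pigment biliverdin, on which a biliverdin reductase acts. Freed iron is held in ferritin, a shell of heavy (Fth1) and light (Ftl1) chains, or leaves the cell through ferroportin (Slc40a1), while transferrin receptor (Tfrc) brings iron in. Macrophages recycle the heme of red blood cells, and in tumors they can carry much of the Hmox1 RNA. Transcription of Hmox1 is held down by BACH1 and driven by NRF2. Iron regulatory proteins bind a hairpin in the messenger RNA, the iron-responsive element. In a 5′ UTR this blocks translation, and in the 3′ UTR of Tfrc it protects the message from decay.

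That hairpin is what ties ferritin, ferroportin and transferrin receptor into 1 circuit, so the matching stretches are shown here. Transcripts of the GENCODE M21 annotation (GRCm38, also called mm10) were searched on the sense strand for a C, any 5 bases, CAGTG and any base, followed by 5 bases that pair, by Watson-Crick or G-T pairs, with the 5 bases before the loop. Capitals mark the 6 bases of the loop, and each stretch runs 29 bases from 5′ to 3′ on the transcript.
Slc40a1, 5′ UTR, chr1:45925465-45925493, minus strand: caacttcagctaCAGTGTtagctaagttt
Fth1, 5′ UTR, chr19:9982732-9982760, plus strand: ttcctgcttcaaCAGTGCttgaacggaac
Ftl1, 5′ UTR, chr7:45459779-45459807, minus strand: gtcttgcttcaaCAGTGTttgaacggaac
Tfrc 1, 3′ UTR, chr16:32631219-32631247, plus strand: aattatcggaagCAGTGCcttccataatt
Tfrc 2, 3′ UTR, chr16:32631598-32631626, plus strand: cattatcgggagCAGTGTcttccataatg
Tfrc 3, 3′ UTR, chr16:32631663-32631691, plus strand: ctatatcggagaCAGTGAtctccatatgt
Tfrc 4, 3′ UTR, chr16:32631710-32631738, plus strand: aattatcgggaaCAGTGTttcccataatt
Both ferritin chains and ferroportin held 1 match each in the 5′ UTR, and Tfrc held 4 in the 3′ UTR. The UTRs of the other 6 genes held none. A match of this kind was found in 0.0955% of 19893 5′ UTRs (19 transcripts) and in 0.508% of 20484 3′ UTRs (104 transcripts), taking 1 coding transcript per gene. A match describes the letters only, and no binding was measured.

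Reads counted on genes came to 4.35 to 9.33 M (M for mega) in Mettl3 KO, 6.45 to 17.0 M in Mettl14 KO and 5.52 to 20.98 M in control libraries. Reads outside genes made up 60.2% to 78.0% of uniquely aligned reads in Mettl3 KO and 53.6% to 65.9% in Mettl14 KO libraries. In control libraries they made up 44.3% to 53.8%, apart from control replicate 1 at 78.6%. Levels are in CPM, the reads of a gene per 1000000 reads on genes, with library sizes adjusted by TMM scaling. Mettl3 RNA averaged 13.7 ± 1.47 CPM in Mettl3 KO, against 19.4 ± 3.67 CPM in control tumors (SD, n = 5 each). Its log2 fold change was -0.56, with an edgeR adjusted p = 0.0545. Mettl14 RNA averaged 61.3 ± 12.4 CPM in Mettl14 KO, against 69.0 ± 11.7 CPM in control tumors, with a log2 fold change of -0.21 and an edgeR adjusted p = 0.735. The lower Mettl3 level was not particular to that gene. All 8 m6A writer genes listed, Mettl3 and Mettl14 among them, were below 0 in Mettl3 KO against control. Their median log2 fold change was -0.50, against -0.14 over all genes, with Rbm15 at -0.74 and Mettl14 at -0.40. An edited gene can still be transcribed and host cells add their own RNA, so these reads are a limited check of the knockouts.

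Across all genes, edgeR's quasi-likelihood test at an adjusted p under 0.05 called 266 of 21427 genes between Mettl3 KO and control tumors (1.24%), 87 higher and 179 lower. The higher calls were 32.7% of that count, and 72.0% of the 100 calls with RLE scaling or 86.9% of the 122 calls with library totals. Library totals also moved the median of all genes by 0.16 on the log2 scale in both comparisons with control. The same test called 0 of 21555 genes between Mettl14 KO and control tumors (0%), where 2444 (11.3%) had an unadjusted p under 0.05 and DESeq2 called 505. Between Mettl3 KO and Mettl14 KO tumors it called 0 of 24566 genes (0%), where 3152 (12.8%) had an unadjusted p under 0.05 and DESeq2 called 68. None of the 10 heme and iron genes was called in any of the 3 comparisons. At an unadjusted p under 0.05 stood 3 of the 10 in Mettl3 KO against control (background 32.3%), 2 in Mettl14 KO against control (background 11.3%) and 3 in Mettl3 KO against Mettl14 KO (background 12.8%). Other settings called other shares of all genes, and a call of a heme or iron gene in them is read against those shares. Between Mettl3 KO and control DESeq2 called 12.6% and the edgeR fit without control replicate 1 called 51.6% of the genes tested. Between Mettl14 KO and control the shares were 2.34% with DESeq2, 4.86% without control replicate 1 and 0.678% without Mettl14 KO replicate 5, and between the knockouts 0.277% with DESeq2. Both knockout comparisons use the same 5 control libraries, so their values are set side by side and not correlated.

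Hmox1 (chr8:75093621-75100589, plus strand), the inducible heme oxygenase, stood highest in the Mettl14 KO tumors. In Mettl3 KO replicates 1 to 5 it was at 55.8, 28.1, 38.2, 27.3 and 18.2 CPM. Its level was 61.0, 93.3, 198.7, 121.9 and 62.9 CPM in Mettl14 KO replicates 1 to 5, against 35.0, 33.5, 26.3, 41.4 and 50.4 CPM in control replicates 1 to 5. Every Mettl14 KO library was above every control and every Mettl3 KO library, while Mettl3 KO and control libraries overlapped. Mettl14 KO replicate 3 was the highest and Mettl3 KO replicate 5 the lowest of the 15.

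The means were 108 ± 56.7 CPM in Mettl14 KO, against 37.3 ± 9.09 CPM in control tumors (SD, n = 5 each), a fitted fold of 2.79 with a log2 fold change of 1.48 ± 0.31 (SE). The edgeR adjusted p was 0.144, not past the threshold, and Hmox1 ranked 78th of the 21555 genes by p. Of all genes tested, 0.677% had every Mettl14 KO library above every control library. With DESeq2 the adjusted p was 0.000536, and over the 20 alternatives it ranged from 0.000536 to 0.420, under 0.05 in 4 of them. Those 4 include the edgeR fit without control replicate 1 (adjusted p = 0.0433) and that without Mettl14 KO replicate 5 (adjusted p = 0.0448). The fit without libraries over 75% outside genes is also among the 4. Here it is the same fit as that without control replicate 1, so the 4 are not all distinct. Leaving out 1 library gave log2 fold changes from 1.16 to 1.66 and edgeR adjusted p from 0.0433 to 0.420. In the authors' deposited table, Hmox1 had a log2 fold change of 1.49 and an adjusted p of 0.00067.

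Mettl3 KO tumors averaged 33.5 ± 14.3 CPM of Hmox1, against 37.3 ± 9.09 CPM in control tumors, for a log2 difference of -0.21 with an SE of 0.29 (edgeR adjusted p = 0.580). That direction turned in 4 of 20 alternatives, among them the fits without Mettl3 KO replicate 5 (0.05) and without control replicate 5 (0.05). The direct comparison of Mettl3 KO tumors, at 33.5 ± 14.3 CPM, with Mettl14 KO tumors, at 108 ± 56.7 CPM, gave a log2 fold change of -1.68 ± 0.34 (SE), the 11th lowest p of 24566 genes. The edgeR adjusted p was 0.222, and it ranged from 0.000851 with DESeq2 to 0.719 over the 25 alternatives, under 0.05 in DESeq2 alone. Of all genes tested, 1.88% had every Mettl3 KO library below every Mettl14 KO library. In bulk tumors fewer cells of a type and less RNA per cell cannot be told apart, for Hmox1 and for every gene that follows.

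**Figure D1:**
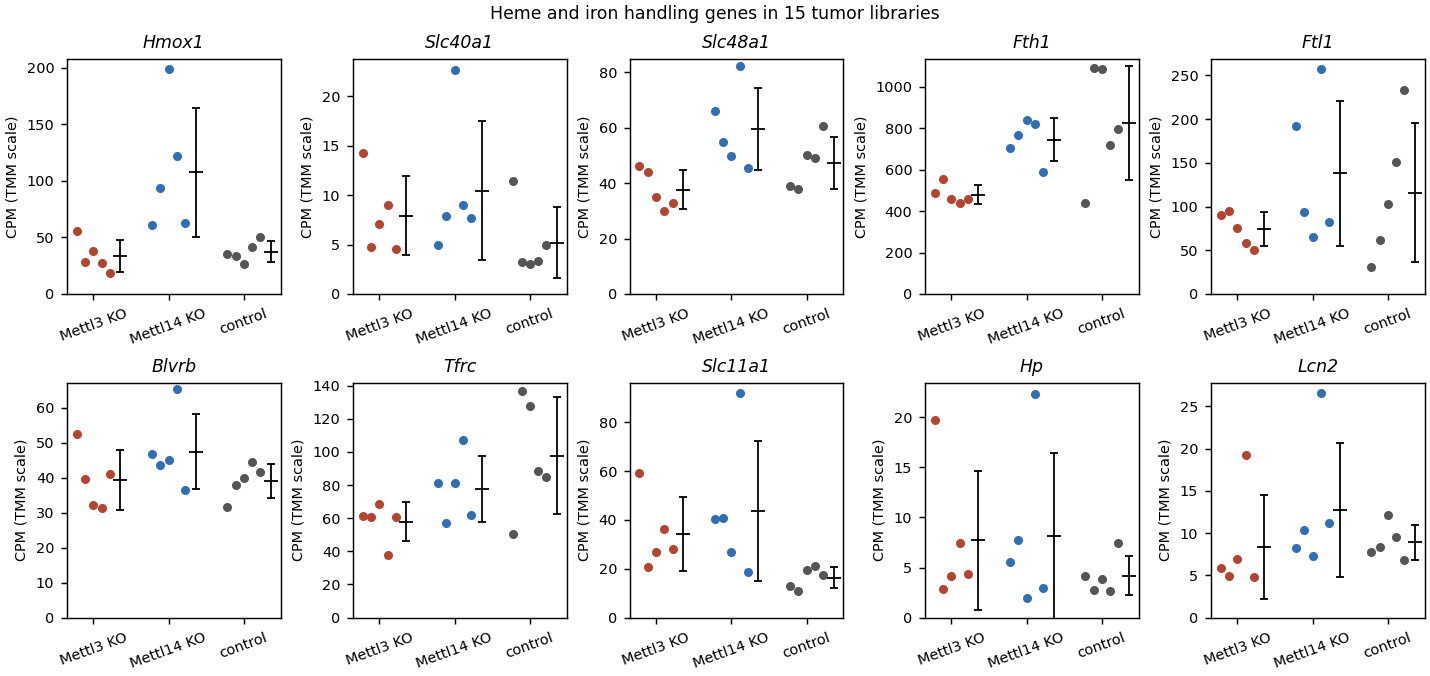
Level of each of the 10 genes in CPM (linear axes from 0) in every library, with Mettl3 KO, Mettl14 KO and control from left to right and replicates 1 to 5 in order within a group; bars at the right of each group give the mean and SD (n = 5), cut at 0 for Hp. Hmox1 is the gene whose 5 Mettl14 KO points, 61.0 to 198.7 CPM, all lie above the control points, 26.3 to 50.4 CPM.

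Blvrb (chr7:27447978-27466144, plus strand), whose enzyme reduces biliverdin and other substrates, overlapped in all 3 groups. It ranged from 31.4 to 52.6 CPM in Mettl3 KO, 36.5 to 65.4 CPM in Mettl14 KO and 31.7 to 44.4 CPM in control tumors. The log2 fold change was -0.04 ± 0.17 (SE) in Mettl3 KO against control (edgeR adjusted p = 0.844) and 0.23 ± 0.15 in Mettl14 KO against control (edgeR adjusted p = 0.614). The sign in Mettl3 KO flipped with the scaling and with most left-out libraries, so no direction is given for it there.

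Slc48a1 (chr15:97778520-97792692, plus strand) encodes HRG1, which carries heme out of the lysosome into the cytosol. Its level was 46.0, 44.1, 35.1, 30.1 and 32.8 CPM in Mettl3 KO replicates 1 to 5 and 66.1, 54.9, 49.8, 82.2 and 45.4 CPM in Mettl14 KO replicates 1 to 5. In control replicates 1 to 5 it was 39.0, 37.8, 50.2, 49.0 and 60.5 CPM. The highest Mettl3 KO library passed the lowest Mettl14 KO library by under 1 CPM, and the other 4 Mettl3 KO libraries lay below all Mettl14 KO libraries. In log2 terms Slc48a1 differed by -0.66 ± 0.19 (SE) in Mettl3 KO against Mettl14 KO (edgeR adjusted p = 0.349), -0.39 ± 0.19 in Mettl3 KO against control (edgeR adjusted p = 0.163) and 0.28 ± 0.18 in Mettl14 KO against control (edgeR adjusted p = 0.614).

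Fth1 (chr19:9980598-9985098, plus strand), the ferritin heavy chain that oxidises iron for storage, was the most abundant of the 10 per kilobase of messenger RNA in every group. It stood at 486, 557, 460, 438 and 458 CPM in Mettl3 KO replicates 1 to 5. Mettl14 KO replicates 1 to 5 had 706, 768, 842, 821 and 588 CPM, against 438, 1088, 1087, 719 and 797 CPM in control replicates 1 to 5. All Mettl3 KO libraries were below all Mettl14 KO libraries and below 4 of the 5 control libraries. Control replicate 1, the control with the most reads outside genes, lay at the level of the Mettl3 KO libraries.

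The Fth1 means were 480 ± 46.4 CPM in Mettl3 KO and 745 ± 102 CPM in Mettl14 KO, against 826 ± 274 CPM in control tumors (SD, n = 5 each). In Mettl3 KO against control Fth1 ranked 1206th of the 21427 genes by p, where 32.3% of all genes had an unadjusted p under 0.05. Its log2 fold change there was -0.83 ± 0.22 (SE), with an edgeR adjusted p of 0.0535, not past the threshold. Over the 20 alternatives that p ranged from 0.00477 to 0.363 and was under 0.05 in 5, among them DESeq2 (0.0126) and the edgeR fit without control replicate 1 (0.00477). Those 5 settings called from 12.6% of all genes (DESeq2) to 51.6% (without control replicate 1). With the share of reads outside genes as a covariate, the log2 fold change was -0.44. In the authors' deposited table, Fth1 in Mettl3 knockout had a log2 fold change of -0.69 and an adjusted p of 0.0217. Mettl3 KO against Mettl14 KO gave -0.63 ± 0.21 (SE, edgeR adjusted p = 0.349), and Mettl14 KO against control -0.18 ± 0.21 (edgeR adjusted p = 0.882).

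Ftl1 (chr7:45457944-45459884, minus strand), the ferritin light chain, spread far more between libraries of 1 group than Fth1 did. It ranged from 50.7 to 95.5 CPM in Mettl3 KO, 65.4 to 257 CPM in Mettl14 KO and 31.2 to 233 CPM in control tumors. The groups overlapped throughout. In log2 terms Ftl1 differed by -0.71 ± 0.43 (SE) in Mettl3 KO against control (edgeR adjusted p = 0.253), 0.21 ± 0.49 in Mettl14 KO against control (edgeR adjusted p = 0.978) and -0.89 ± 0.45 in Mettl3 KO against Mettl14 KO (edgeR adjusted p = 0.349). Both ferritin genes have processed copies elsewhere in the genome. The copies Ftl1-ps1, Ftl1-ps2, Ftl2-ps, Fth-ps2 and Fth-ps3 had at most 1.65 CPM in any library, but reads that align to several places were not counted, so the ferritin levels are uncertain.

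Tfrc (chr16:32608920-32632794, plus strand), the receptor that takes in transferrin-bound iron, stood at 61.4, 60.6, 68.4, 37.5 and 60.7 CPM in Mettl3 KO replicates 1 to 5. Mettl14 KO replicates 1 to 5 had 81.2, 57.2, 80.9, 107.4 and 61.9 CPM, and control replicates 1 to 5 had 50.1, 136.8, 128.0, 88.3 and 85.1 CPM. As for Fth1, the Mettl3 KO libraries were below 4 of the 5 control libraries, and control replicate 1 lay among them. The means were 57.7 ± 11.7 CPM in Mettl3 KO, against 97.7 ± 35.2 CPM in control tumors (SD, n = 5 each), a log2 fold change of -0.80 ± 0.24 (SE) with an edgeR adjusted p of 0.0606. Over the 20 alternatives that p ranged from 0.00574 to 0.424 and was under 0.05 in the same 5 settings as for Fth1. Among them was the fit without control replicate 1 (0.00574), which called 51.6% of all genes. Tfrc ranked 1987th of the 21427 genes by p in the main fit. The authors' deposited table gave Tfrc in Mettl3 knockout a log2 fold change of -0.65 and an adjusted p of 0.0656, not under 0.05. Mettl14 KO tumors averaged 77.7 ± 19.9 CPM, a log2 fold change of -0.36 ± 0.23 against control (edgeR adjusted p = 0.633).

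Slc40a1 (chr1:45908068-45926523, minus strand), which encodes the iron exporter ferroportin, was the lowest of the 10 per kilobase of messenger RNA in all 3 groups. It had 14.3, 4.7, 7.1, 9.0 and 4.5 CPM in Mettl3 KO replicates 1 to 5 and 5.0, 7.9, 22.7, 9.0 and 7.7 CPM in Mettl14 KO replicates 1 to 5. Control replicates 1 to 5 had 11.5, 3.3, 3.0, 3.4 and 4.9 CPM. Only Mettl3 KO replicate 1 and Mettl14 KO replicate 3 were above every control, of which replicate 1 was the highest. Against control Slc40a1 had a log2 fold change of 0.56 ± 0.48 (SE) in Mettl3 KO (edgeR adjusted p = 0.378) and 0.95 ± 0.50 in Mettl14 KO tumors (edgeR adjusted p = 0.508). Single libraries moved both values. Without control replicate 1 the value was 1.28 in Mettl3 KO (edgeR adjusted p = 0.00949, in a fit that called 51.6% of all genes) and 1.49 in Mettl14 KO (edgeR adjusted p = 0.0483, in a fit that called 4.86%). Without Mettl14 KO replicate 3, the library at 22.7 CPM, the Mettl14 KO value was 0.50 (edgeR adjusted p = 0.827). Without Mettl3 KO replicate 1 the Mettl3 KO value was 0.34 (edgeR adjusted p = 0.676). Over the alternatives those p ranged from 0.00949 to 0.867 in Mettl3 KO and from 0.0483 to 0.991 in Mettl14 KO. With reads outside genes as a covariate, the value in Mettl3 KO was -0.15. The authors' deposited tables gave Slc40a1 log2 fold changes of 0.12 in Mettl3 knockout (adjusted p = 0.874) and 0.96 in Mettl14 knockout (adjusted p = 0.354).

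Slc11a1 (chr1:74375195-74386062, plus strand) encodes NRAMP1, a metal transporter in the phagosome membrane of macrophages and neutrophils. It stood at 59.4, 20.7, 26.9, 36.2 and 28.2 CPM in Mettl3 KO replicates 1 to 5. Mettl14 KO replicates 1 to 5 had 40.6, 40.9, 26.9, 92.2 and 18.5 CPM, against 12.7, 11.1, 19.7, 21.1 and 17.4 CPM in control replicates 1 to 5. In each knockout 4 of 5 libraries were above all controls, and the fifth lay within the control range. The means were 34.3 ± 15.1 CPM in Mettl3 KO and 43.8 ± 28.7 CPM in Mettl14 KO, against 16.4 ± 4.34 CPM in control tumors (SD, n = 5 each).

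The log2 fold change of Slc11a1 was 1.02 ± 0.31 (SE) in Mettl3 KO against control with an edgeR adjusted p of 0.0619, which ranged over the 20 alternatives from 0.00577 to 0.361 and was under 0.05 in the same 5 settings as for Fth1. In Mettl14 KO against control it was 1.36 ± 0.36 with an edgeR adjusted p of 0.220, which ranged from 0.0132 with DESeq2 to 0.574 and was under 0.05 in DESeq2 alone. By edgeR p Slc11a1 ranked 2139th of the 21427 genes in Mettl3 KO and 265th of the 21555 genes in Mettl14 KO against control. The authors' deposited tables gave Slc11a1 log2 fold changes of 1.16 in Mettl3 knockout (adjusted p = 0.0121) and 1.43 in Mettl14 knockout (adjusted p = 0.0144). Those tables held 1871 and 503 genes with an adjusted p under 0.05. The knockouts differed from each other by -0.36 ± 0.36 (SE, edgeR adjusted p = 0.506), a sign that turned without Mettl14 KO replicate 4 (0.20).

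Hp (chr8:109575128-109579172, minus strand) and Lcn2 (chr2:32384633-32388252, minus strand) encode secreted proteins. Haptoglobin, from Hp, binds free hemoglobin, and lipocalin 2, from Lcn2, binds iron-loaded siderophores. Hp had 19.7, 2.8, 4.2, 7.5 and 4.4 CPM in Mettl3 KO, 5.6, 7.8, 2.0, 22.4 and 2.9 CPM in Mettl14 KO and 4.1, 2.8, 3.8, 2.7 and 7.4 CPM in control replicates 1 to 5. Lcn2 had 5.9, 4.9, 6.9, 19.2 and 4.7 CPM in Mettl3 KO, 8.3, 10.4, 7.3, 26.6 and 11.2 CPM in Mettl14 KO and 7.8, 8.4, 12.2, 9.5 and 6.8 CPM in control replicates 1 to 5. In each knockout 1 library stood far above the rest of its group. For Mettl14 KO this was replicate 4 in both genes. For Mettl3 KO it was replicate 1 for Hp and replicate 4 for Lcn2.

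The log2 fold change of Hp was 0.82 ± 0.55 (SE) in Mettl3 KO (edgeR adjusted p = 0.283) and 0.89 ± 0.57 in Mettl14 KO tumors (edgeR adjusted p = 0.635) against control. Lcn2 had -0.12 ± 0.41 in Mettl3 KO (edgeR adjusted p = 0.824), which flipped with library totals as the scaling (0.08), and 0.46 ± 0.32 in Mettl14 KO tumors (edgeR adjusted p = 0.680). Without Mettl14 KO replicate 4 the Mettl14 KO values were 0.10 for Hp and 0.03 for Lcn2. Without Mettl3 KO replicate 1 the Hp value in Mettl3 KO was 0.28, and without Mettl3 KO replicate 4 the Lcn2 value there was -0.59. Neutrophils are a known source of both proteins. The summed level of 17 neutrophil and acute phase genes was highest in Mettl14 KO replicate 4 (273 CPM) and Mettl3 KO replicate 1 (163 CPM), against 43.6 to 140 CPM in the other 13 libraries. The sum did not follow Lcn2 in Mettl3 KO. Replicate 4, with 19.2 CPM of Lcn2, had a sum of 81.4 CPM, and replicate 1 had 5.9 CPM of Lcn2. Of the 163 CPM in Mettl3 KO replicate 1, the acute phase gene Saa3 gave 42.2 CPM. Of the 17 genes, 8 of 9 tested were above 0 in Mettl3 KO against control (median log2 fold change 0.34) and 10 of 11 in Mettl14 KO against control (median 0.85), and none was called. The neutrophil receptor gene Csf3r averaged 17.0 ± 7.05 CPM in Mettl3 KO and 22.1 ± 19.6 CPM in Mettl14 KO, against 8.84 ± 1.83 CPM in control tumors. None of the 17 was at 0 in all libraries of a group, and their part in the Hp and Lcn2 levels was not tested.

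Over the 10 genes, 3 had a log2 fold change above 0 and 7 below 0 in Mettl3 KO against control, where 44.9% and 55.1% of all genes did, with a median of -0.16 against -0.14 over all genes. In Mettl14 KO against control 8 of the 10 were above 0 and 2 below, where 39.2% and 60.8% of all genes were, with a median of 0.37 against -0.09. In Mettl3 KO against Mettl14 KO all 10 were below 0, where 50.7% of all genes were below and 49.3% above, with a median of -0.52 against -0.01. Groups with no overlap were found for 0 of the 10 genes in Mettl3 KO against control (background 1.8% higher and 1.54% lower). They were found for Hmox1, higher, in Mettl14 KO against control (background 0.677% higher and 0.673% lower), and for Hmox1 and Fth1, lower, in Mettl3 KO against Mettl14 KO (background 1.64% higher and 1.88% lower).

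**Figure D2:**
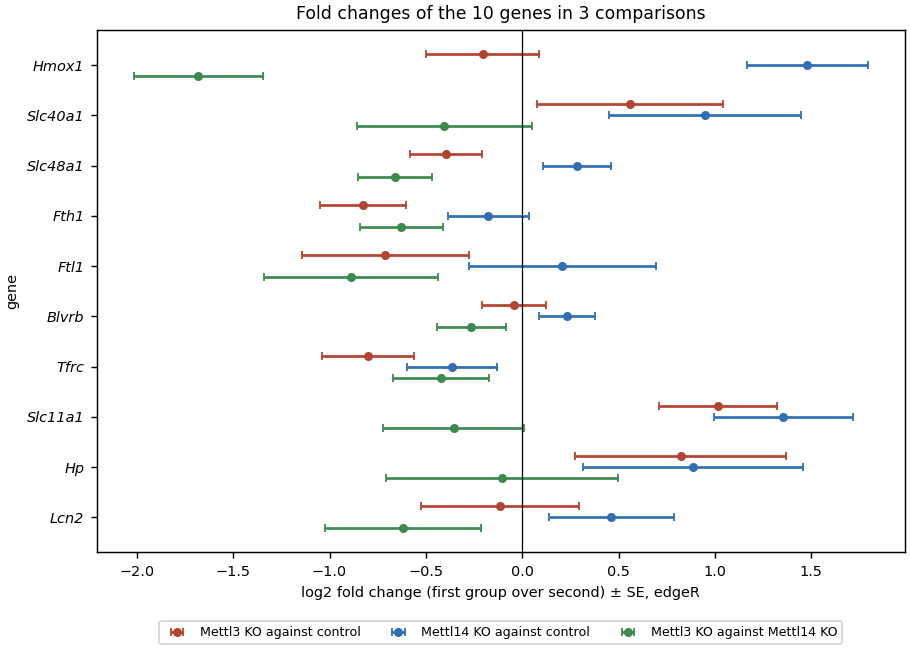
Log2 fold change with its standard error (horizontal bars) for the 10 genes from the edgeR fits, with the first named group over the second: Mettl3 KO against control, Mettl14 KO against control and Mettl3 KO against Mettl14 KO from top to bottom within each gene. Hmox1 lies at 1.48 in Mettl14 KO against control and at -0.21 in Mettl3 KO against control; all 10 green points are below 0.

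Levels can be compared between genes only per kilobase of messenger RNA (1 coding transcript per gene). On that scale, in Mettl14 KO tumors, Fth1 averaged 499 ± 68.3, Ftl1 143 ± 85.8, Hmox1 68.6 ± 36.2 and Blvrb 49.9 ± 11.3 CPM per kilobase (SD, n = 5). In control tumors Fth1 averaged 553 ± 183, Ftl1 120 ± 82.1, Blvrb 41.0 ± 5.02, Hmox1 23.8 ± 5.79, Tfrc 20.0 ± 7.20 and Slc48a1 18.7 ± 3.67 CPM per kilobase. By the mean, Hmox1 was the third highest of the 10 in Mettl14 KO tumors and the fourth highest in Mettl3 KO tumors (21.4 ± 9.12 CPM per kilobase) and control tumors. Hmox1 and Blvrb differed by less than 1 SD in Mettl14 KO tumors, and so did Hmox1, Tfrc and Slc48a1 in control tumors. Ferroportin came last, at 2.35 ± 1.19 in Mettl3 KO, 3.10 ± 2.08 in Mettl14 KO and 1.54 ± 1.06 CPM per kilobase in control tumors.

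Ratios of reads of 2 genes in 1 library do not depend on how the library is scaled. The log2 ratio of Slc40a1 to Hmox1, iron export over heme breakdown, was -1.97, -2.57, -2.43, -1.60 and -2.02 in Mettl3 KO replicates 1 to 5. It was -3.61, -3.56, -3.13, -3.76 and -3.04 in Mettl14 KO replicates 1 to 5, and -1.61, -3.35, -3.13, -3.63 and -3.36 in control replicates 1 to 5. All Mettl3 KO libraries were above all Mettl14 KO libraries. Control replicate 1 lay with the Mettl3 KO libraries and the other 4 controls with the Mettl14 KO libraries.

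The mean log2 ratio of Slc40a1 to Hmox1 was -2.12 ± 0.39 in Mettl3 KO, against -3.42 ± 0.32 in Mettl14 KO tumors (SD, n = 5 each). Their difference was 1.30. The Mettl3 KO ratio was also set against that of control tumors, at -3.02 ± 0.80, and lay 0.90 above it, or 1.25 above it without control replicate 1. Both genes were chosen with their levels in these libraries known, so these ratios restate those levels and no p is given for them. Between the knockouts the log2 fold change was -1.68 for Hmox1 and -0.40 for Slc40a1. Both were lower in Mettl3 KO, and the ratio was higher there since Hmox1 differed by more than Slc40a1.

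The log2 ratio of Tfrc to Fth1, the uptake receptor over the store, averaged -3.08 ± 0.31 in Mettl3 KO, -3.29 ± 0.31 in Mettl14 KO and -3.09 ± 0.09 in control tumors. Set against control the difference was 0.01 for Mettl3 KO and -0.19 for Mettl14 KO, each smaller than the SD of 0.31 in the knockout. The log2 ratio of Fth1 to Ftl1 averaged 2.73 ± 0.30 in Mettl3 KO and 2.62 ± 0.84 in Mettl14 KO, against 3.08 ± 1.02 in control tumors, and spanned 1.77 to 4.15 among controls.

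**Figure D3:**
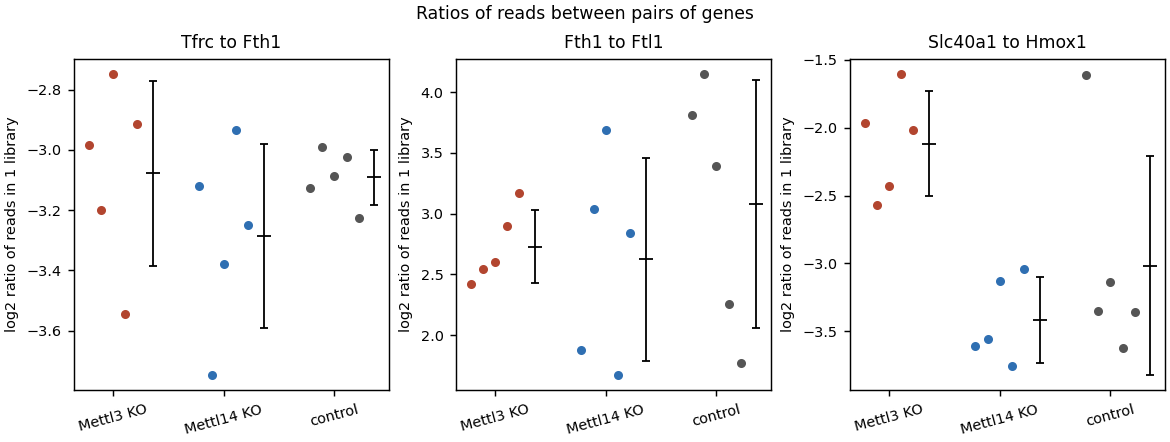
Log2 ratio of reads of 2 genes within 1 library for Tfrc to Fth1, Fth1 to Ftl1 and Slc40a1 to Hmox1 in every library, with Mettl3 KO, Mettl14 KO and control from left to right and the mean and SD (n = 5) at the right of each group. For Slc40a1 to Hmox1 the Mettl3 KO points lie from -2.57 to -1.60, all above the Mettl14 KO points, and control replicate 1 (-1.61) lies apart from the other controls.

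The other genes of the pathway were read from lists of genes named by role. Of 9 genes of heme synthesis none was called in any comparison, and 8 were below 0 in Mettl3 KO against control with a median log2 fold change of -0.36. Alas2, the erythroid enzyme that starts heme synthesis, averaged 11.2 ± 3.97 CPM in Mettl3 KO and 11.0 ± 2.12 CPM in Mettl14 KO, against 19.8 ± 6.30 CPM in control tumors. Its edgeR adjusted p was 0.0579 in Mettl3 KO and 0.186 in Mettl14 KO. Urod, a later enzyme of the same path, averaged 13.4 ± 2.49 CPM in Mettl3 KO, against 19.8 ± 5.36 CPM in control tumors (edgeR adjusted p = 0.0688). Alas1, the counterpart of Alas2 outside red cells, averaged 25.8 ± 6.82 CPM in Mettl14 KO, against 20.0 ± 3.12 CPM in control tumors (edgeR adjusted p = 0.493).

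Among 15 tested genes of heme transport and breakdown 1 was called in Mettl3 KO against control, where 1.24% of all genes were called. Cd163, the macrophage receptor that takes up hemoglobin bound to haptoglobin, fell in Mettl3 KO tumors. It ranged from 9.90 to 17.8 CPM in Mettl3 KO, against 27.9 to 47.0 CPM in control tumors, and averaged 14.1 ± 3.09 CPM in Mettl3 KO, against 38.5 ± 8.79 CPM in control tumors (SD, n = 5 each). It differed by -1.50 ± 0.20 on the log2 scale (SE), with an edgeR adjusted p of 0.0102. Cd163 was lower in all 20 alternatives, by -1.64 to -1.10, and called in 18 of them. The exceptions were the fits without Mettl3 KO replicate 4 and without control replicate 2, and the adjusted p reached 0.0535 at most. The alternatives called from 0.124% to 51.6% of all genes. In Mettl14 KO tumors Cd163 ranged from 20.7 to 51.7 CPM, and the log2 fold change of Mettl3 KO against Mettl14 KO was -1.35 ± 0.24 (edgeR adjusted p = 0.212). Of the 16 genes tested in Mettl14 KO against control none was called. There the heme exporter Flvcr1 averaged 37.8 ± 7.74 CPM in Mettl14 KO, against 58.6 ± 20.3 CPM in control tumors (edgeR adjusted p = 0.283), and the mitochondrial transporter Abcb10 averaged 17.6 ± 2.53 CPM in Mettl14 KO, against 22.8 ± 4.38 CPM in control tumors (edgeR adjusted p = 0.325).

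None of 19 tested genes of iron uptake, export and storage was called in any comparison. Ceruloplasmin (Cp), a ferroxidase that works with ferroportin, averaged 130 ± 40.2 CPM in Mettl3 KO and 131 ± 43.7 CPM in Mettl14 KO, against 254 ± 103 CPM in control tumors. Its edgeR adjusted p was 0.0562 in Mettl3 KO and 0.234 in Mettl14 KO. Steap1, of the metalloreductase family, averaged 27.5 ± 8.84 CPM in Mettl3 KO, against 55.8 ± 17.7 CPM in control tumors (edgeR adjusted p = 0.0524). Steap3, the ferrireductase of endosomes, averaged 10.9 ± 5.05 CPM in Mettl14 KO, against 6.29 ± 1.35 CPM in control tumors (edgeR adjusted p = 0.395).

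None of the 9 regulators of iron tested was called in any comparison. Ireb2 and Aco1 encode the iron regulatory proteins that bind the hairpins shown above. Ireb2 averaged 80.3 ± 20.0 CPM in Mettl3 KO and 106 ± 12.4 CPM in Mettl14 KO, against 134 ± 44.8 CPM in control tumors (edgeR adjusted p = 0.0566 for Mettl3 KO and 0.530 for Mettl14 KO). Aco1 averaged 39.7 ± 9.11 CPM in Mettl3 KO, against 58.3 ± 14.4 CPM in control tumors (edgeR adjusted p = 0.0706). Bmp2 averaged 31.2 ± 12.5 CPM in Mettl14 KO, against 42.7 ± 18.8 CPM in control tumors (edgeR adjusted p = 0.714).

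Of 24 NRF2 and BACH1 regulators and targets other than Hmox1 none was called in any comparison. In Mettl3 KO against control 22 of the 24 were below 0, with a median log2 fold change of -0.42 against -0.14 over all genes, and 12 had an unadjusted p under 0.05 (background 32.3%). In Mettl14 KO against control 16 of the 24 were above 0 with a median of 0.05, where Hmox1 had 1.48. The list pools regulators of opposite roles, such as Nfe2l2 and Bach1, with targets. Its signs and medians therefore give no direction for NRF2 or BACH1 activity. Gclc, which makes glutathione precursor, averaged 40.9 ± 2.88 CPM in Mettl3 KO, against 57.7 ± 9.97 CPM in control tumors (edgeR adjusted p = 0.0524). Gpx4, which repairs lipid peroxides, averaged 47.5 ± 10.9 CPM in Mettl3 KO and 50.5 ± 5.76 CPM in Mettl14 KO, against 73.6 ± 17.2 CPM in control tumors (edgeR adjusted p = 0.0530 for Mettl3 KO and 0.220 for Mettl14 KO). Akr1b8 averaged 43.2 ± 6.48 CPM in Mettl14 KO, against 50.1 ± 10.7 CPM in control tumors (edgeR adjusted p = 0.591).

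Between the knockouts, where no gene of any list was called, Cd163 had the lowest p of its list, and Cpox, Slc25a37, Hjv and Gclc had the lowest p of the other 4 lists above. Cpox averaged 28.9 ± 5.59 CPM in Mettl3 KO, against 38.6 ± 5.11 CPM in Mettl14 KO tumors. Slc25a37 averaged 98.4 ± 28.8 CPM in Mettl3 KO, against 160 ± 28.2 CPM in Mettl14 KO tumors. Gclc averaged 40.9 ± 2.88 CPM in Mettl3 KO, against 60.6 ± 2.04 CPM in Mettl14 KO tumors. Cpox makes a heme precursor and Slc25a37 carries iron into mitochondria. Hjv, the co-receptor hemojuvelin of iron regulation, lay the other way, at 2.91 ± 1.24 CPM in Mettl3 KO, against 1.04 ± 0.70 CPM in Mettl14 KO tumors, with a log2 fold change of 1.51. The edgeR adjusted p was 0.349 for Cpox, Slc25a37 and Hjv and 0.329 for Gclc.

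Hemoglobin transcripts were low in both knockouts. Of 8 erythroid markers tested in Mettl3 KO against control 3 fell, where 0.835% of all genes were called lower. Hbb-bs stood at 15.2 ± 7.58 CPM in Mettl3 KO, against 89.4 ± 60.9 CPM in control tumors. Its log2 fold change was -2.62 ± 0.47 (SE, edgeR adjusted p = 0.0349). The others that fell were Hba-a1 (-2.16, edgeR adjusted p = 0.0463) and Hbb-bt (-2.74, edgeR adjusted p = 0.0485). Hbb-bt rests on few reads, at 0.93 ± 0.31 CPM in Mettl3 KO, against 5.96 ± 5.36 CPM in control tumors, where 1 library had 15.2 CPM. Of the 8 markers 4 were below 0 and 4 above 0 in that comparison, with a median log2 fold change of -0.83. For Mettl14 KO against control 6 of the 8 were below 0 and 2 above, with a median of -0.90. All alternatives kept the 3 genes lower, but Hbb-bs was called in 10 of 20, Hba-a1 in 6 of 20 and Hbb-bt in 4 of 19, with adjusted p up to 0.199, 0.218 and 0.266. In Mettl3 KO against control the alternatives called from 0.124% to 51.6% of all genes. Leaving out any control library but replicate 1 ended all 3 calls, as did leaving out Mettl3 KO replicate 1, 3, 4 or 5. In Mettl14 KO tumors Hbb-bs averaged 20.6 ± 7.94 CPM, with an edgeR adjusted p of 0.130 against control. The summed level of the 10 erythroid markers found ran from 30.2 to 55.8 CPM in Mettl3 KO, 29.4 to 55.5 CPM in Mettl14 KO and 72.3 to 278 CPM in control tumors, and both knockouts lay wholly below control in that sum. Hemoglobin genes have near-identical copies and their split is uncertain. The part of this difference in the levels of Hmox1 and the other heme genes was not tested.

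Macrophage markers overlapped between the groups in their summed level. Over 15 markers it was 1736 to 4339 CPM in Mettl3 KO, 2278 to 6643 CPM in Mettl14 KO and 1562 to 3166 CPM in control tumors, and none of the 15 was called or was at 0 in all libraries of a group. In Mettl14 KO against control 13 of the 15 were above 0 with a median log2 fold change of 0.49, and 5 had an unadjusted p under 0.05, all higher (background 11.3%). In Mettl3 KO against control 9 of the 15 were above 0 with a median of 0.07. Aif1 averaged 42.1 ± 28.3 CPM in Mettl14 KO, against 14.95 ± 4.22 CPM in control tumors (edgeR adjusted p = 0.229). The Fc receptor gene Fcgr1 averaged 41.4 ± 13.8 CPM in Mettl3 KO and 50.6 ± 33.5 CPM in Mettl14 KO, against 21.8 ± 3.27 CPM in control tumors (edgeR adjusted p = 0.0524 in Mettl3 KO and 0.246 in Mettl14 KO). The lipopolysaccharide co-receptor gene Cd14 lay the other way in Mettl3 KO, at 22.8 ± 5.22 CPM, against 44.5 ± 15.9 CPM in control tumors (-1.02 on the log2 scale, edgeR adjusted p = 0.0529). At an unadjusted p under 0.05, 2 of the 15 markers were higher and 2 lower in Mettl3 KO against control. The part of these markers in the Hmox1 and Slc11a1 levels was not tested. Mettl14 KO replicate 4 had the highest sum (6643 CPM) and 121.9 CPM of Hmox1. Mettl14 KO replicate 3, with the highest Hmox1 level at 198.7 CPM, had a macrophage sum of 3242 CPM. Control replicate 3 had a sum of 3166 CPM with 26.3 CPM of Hmox1. These 2 libraries differed in single markers, with Mrc1 at 744 CPM in Mettl14 KO replicate 3 and 405 CPM in control replicate 3. Mettl3 KO replicate 1 had a sum of 4339 CPM with 55.8 CPM of Hmox1. The highest Slc11a1 levels, 92.2 CPM in Mettl14 KO replicate 4 and 59.4 CPM in Mettl3 KO replicate 1, were in the 2 libraries with the highest macrophage sums.

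**Figure D4:**
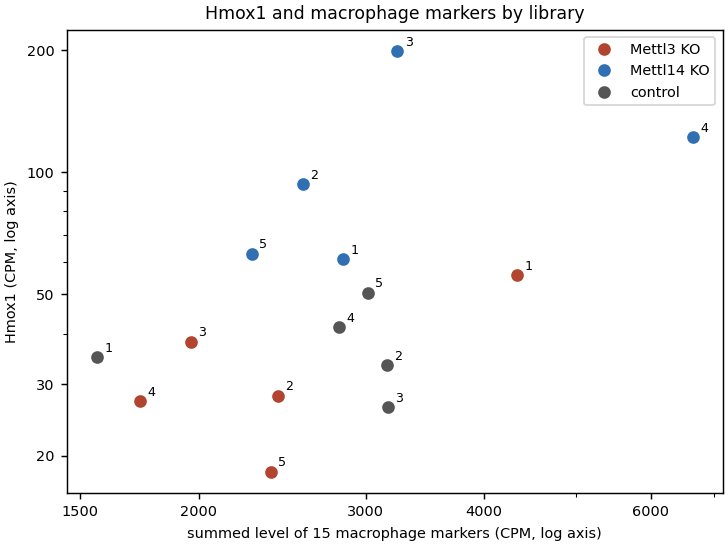
Hmox1 level against the summed level of 15 macrophage markers (both in CPM, log axes) for the 15 libraries, coloured by group and numbered by replicate. Mettl14 KO replicates 1, 2, 3 and 5 lie between 2278 and 3242 CPM of macrophage markers, where control replicates 2 to 5 also lie, and at 61.0 to 198.7 CPM of Hmox1, above those controls. Libraries with like sums can differ in single markers, and the part of macrophages in the Hmox1 level was not tested.

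Fibroblast markers summed to 1262 to 4251 CPM in Mettl3 KO, 1929 to 7592 CPM in Mettl14 KO and 1389 to 3321 CPM in control tumors, with the highest value again in Mettl14 KO replicate 4. The collagen gene Col1a1 averaged 778 ± 592 CPM in Mettl14 KO, against 227 ± 117 CPM in control tumors (edgeR adjusted p = 0.269). Endothelial markers summed to 139 to 248 CPM in Mettl3 KO, 170 to 286 CPM in Mettl14 KO and 152 to 290 CPM in control tumors. Adipocyte markers summed to 42.8 to 98.9 CPM in Mettl3 KO, 32.2 to 55.6 CPM in Mettl14 KO and 46.7 to 64.5 CPM in control tumors. The labelled tumor cell type was checked with 8 colon epithelial genes, which summed to 63.3 to 119 CPM in Mettl3 KO, 86.7 to 174 CPM in Mettl14 KO and 192 to 242 CPM in control tumors. Of these, Krt20, a keratin of colon epithelium, fell in Mettl3 KO to 57.0 ± 27.1 CPM, against 186 ± 24.5 CPM in control tumors (-1.76 ± 0.28 on the log2 scale, SE; edgeR adjusted p = 0.0217). It was lower in all 20 alternatives and called in 11 of them, with an adjusted p up to 0.0849. In that comparison the main fit called 0.835% of all genes lower, and the alternatives called from 0.124% to 51.6% of all genes. Most of the list did not follow Krt20 in Mettl3 KO, where 6 of the 8 genes were above 0 and 2 below, with a median log2 fold change of 0.54. For Mettl14 KO against control 2 of the 8 were above 0 and 6 below, with a median of -0.50. Without Krt20 the other 7 genes summed to 17.1 to 48.0 CPM in Mettl3 KO, 19.3 to 30.0 CPM in Mettl14 KO and 14.2 to 43.0 CPM in control tumors, and the groups overlapped. The part of these cell type markers in the heme and iron gene levels was not tested.

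Genes whose pattern was most like that of Hmox1 were sought among 11352 genes with a mean of at least 5 CPM, by Pearson correlation of log2(CPM + 1) over the 15 libraries, which share depth and group. The 5 highest were Ier3 (r = 0.79), Itsn1 (r = 0.79), Plau (r = 0.78), Gab1 (r = 0.75) and Pf4 (r = 0.75), with Spearman rho of 0.87, 0.86, 0.76, 0.75 and 0.78. These are the top of a ranking of 11352 genes over 15 libraries. The highest r values of so many genes overstate likeness, and no p is given for them. After the group means were taken out, r was 0.68 for Ier3, 0.52 for Itsn1, 0.57 for Plau, 0.63 for Gab1 and 0.61 for Pf4. Ier3 averaged 11.3 CPM in Mettl3 KO and 18.1 CPM in Mettl14 KO, against 10.5 CPM in control tumors. Plau, the urokinase that activates plasminogen, averaged 65.9 CPM in Mettl3 KO and 99.8 CPM in Mettl14 KO, against 55.6 CPM in control tumors. Among the other 9 heme and iron genes the likest were Slc48a1 (r = 0.65) and Slc40a1 (r = 0.64), and the least like Tfrc (r = 0.16). With group means taken out these became 0.30 for Slc48a1, 0.71 for Slc40a1 and 0.10 for Tfrc.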

How the data were processed

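RNA-seq libraries of 15 tumors, 5 per group, were used out of 27 samples; 12 samples of m6A immunoprecipitation and its inputs were not analysed here. Libraries were single reads of 75 nucleotides, per the labels' protocols. The submitters' processing notes name build mm10 and, as tools, HTSeq 0.11.2, HISAT2 2.1.0, DESeq2 and cutadapt 1.18. Neither strand setting nor annotation release is known here, so overlapping and antisense genes cannot be told apart. Read counts, not normalised, were deposited by the authors by Ensembl gene ID in 1 table for each knockout, with the same 5 control columns in both. The closing lines of the tables, for reads outside genes or not counted, held 56.8% to 86.2% of all reads and stayed out of library sizes. Per the file headers, the authors also deposited tables with DESeq2 column names, which hold a mean normalised count (a signal), log2 fold changes and their errors, a test score, and p-values. Values from them are marked as the authors' in the text.

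Of the IDs, 54723 matched a symbol. Genes were filtered with filterByExpr (minimum count 10), scaled by TMM and tested with the edgeR 4.0.16 quasi-likelihood test (robust, R 4.3.3) at a Benjamini-Hochberg adjusted p under 0.05, on the 10 libraries of a knockout and control or, between knockouts, on all 15. SE values came from the F statistic. CPM values are on the TMM scale of the 15 libraries. Within-library ratios are given with no p, since their genes were chosen with their levels known. All 30 replicate pairs differed beyond sampling noise. Deviations of libraries with the same replicate number correlated from -0.63 to 0.50, so the numbers were not taken as pairing. The fits were tested on simulated data. The 10 genes and the 13 lists (160 of 161 genes found) were chosen with earlier results of these data known. The rule for named genes took all 10, the list genes past the threshold (at most 4 by p, otherwise the 2 with the lowest p), Mettl3, Mettl14 and the 5 genes most like Hmox1; of the cell type lists, sums and some of these genes are given. Alternatives were RLE scaling, library totals, other filters, DESeq2 1.42.0, limma 3.58.1 voom, a covariate for reads outside genes, a replicate block, all 15 libraries in 1 fit and each library left out. Chosen after seeing the data was a fit without the libraries with over 75% of reads outside genes (Mettl3 KO replicate 4 and control replicate 1).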

Additional observations from a re-analysis of the deposited data

Results flagged for a closer look

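In 8 of the 39 groups of 5 libraries checked, 1 library stood farther from the others than Dixon's 95% critical value for 5 samples (0.71) allows. Chance gives about 1 group in 20 for normal and independent samples. The groups here share libraries, the ratios reuse genes, and CPM values need not be normal. The count of 8 is therefore a description and cannot be set against that rate. Slc40a1 was at 22.7 CPM in Mettl14 KO replicate 3, where the next library had 9.02 CPM, and at 11.5 CPM in control replicate 1, where the next had 4.92 CPM. The log2 ratio of Slc40a1 to Hmox1 in control replicate 1 was -1.61, against -3.13 in the nearest control. Tfrc was low in Mettl3 KO replicate 4, at 37.5 CPM, where the next library had 60.6 CPM. Hp was at 19.7 CPM in Mettl3 KO replicate 1 and at 22.4 CPM in Mettl14 KO replicate 4. Lcn2 was at 19.2 CPM in Mettl3 KO replicate 4 and at 26.6 CPM in Mettl14 KO replicate 4. Mettl14 KO replicate 4 was therefore apart for both Hp and Lcn2, and it also had the highest sums of macrophage, fibroblast and neutrophil genes; their part was not tested. Control replicate 1 and Mettl3 KO replicate 4 were the 2 libraries with the most reads outside genes, at 78.6% and 78.0%; the part of that share in these values was not tested.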

How the results depend on the processing

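The count of genes called between Mettl3 KO and control, 266 in the report, was 100 with RLE scaling, 122 with library totals, 62 with no filter, 81 with a mean of at least 1 CPM, 55 with the covariate, 42 with all 15 libraries in 1 fit, 2700 with DESeq2, 5089 with voom, 6002 with the replicate block and 8124 without the libraries over 75% outside genes. Leaving out 1 library gave 35 to 11625, with 11625 without control replicate 1 and at most 65 otherwise. Heme and iron genes called there were 3 of 10 with DESeq2, voom or the block (Fth1, Tfrc and Slc11a1 each time), where 12.6%, 23.8% and 28% of all genes were called. They were 4 of 10, with Slc40a1 added, without the libraries over 75%, where 37.7% of all genes were called; leaving out 1 library gave 0 to 4, with 4 without control replicate 1 (51.6% of all genes). Except with DESeq2, these shares of the 10 genes were near those of all genes or below them. In Mettl14 KO against control the count of 0 became 47 with no filter, 505 with DESeq2, 14 with the replicate block, 50 with all 15 libraries and 1054 without control replicate 1, the only library over 75% there; leaving out 1 library gave 0 to 1054 (148 without Mettl14 KO replicate 5). Heme and iron genes called there were 2 with DESeq2 (Hmox1, Slc11a1), 2 without control replicate 1 (Hmox1, Slc40a1) and 0 to 2 over left-out libraries. Between knockouts DESeq2 called 68 genes and 1 of the 10 (Hmox1), and leaving out 1 library gave 0 to 1 genes. In Mettl3 KO against control Blvrb went to 0.0465 (RLE), 0.0467 (covariate), 0.0952 (totals), 0.0627 (1 CPM), 0.0428 (DESeq2), 0.0161 (15 libraries), 0.194 (over 75%) and -0.0835 to 0.162 over left-out libraries; Lcn2 to 0.0843 (totals) and -0.59 to 0.14; Hmox1 to 0.0820 (over 75%) and -0.31 to 0.0514; Slc40a1 to -0.15 and Ftl1 to 0.22 (covariate). In Mettl14 KO against control Fth1 went to 0.0211 (totals) and Ftl1 to -0.0180 (over 75%) and -0.12 to 0.62. Between knockouts left-out libraries gave -0.75 to 0.82 for Hp, -0.70 to 0.0382 for Slc40a1 and -0.61 to 0.20 for Slc11a1. The ratio differences ran, over left-out libraries, from -0.0691 to 0.13 (Tfrc to Fth1, Mettl3 KO against control), -0.13 to 0.37 (Fth1 to Ftl1, between knockouts; -0.24 for medians) and 0.75 to 1.25 (Slc40a1 to Hmox1, Mettl3 KO against control). The cause of these changes was not tested, beyond the fewer libraries or genes a setting leaves. Hmox1 in Mettl14 KO stayed above control under every alternative run, from 1.16 to 1.66. Depth limits Slc40a1, Hp and Lcn2 most, with 34, 15 and 26 reads in their lowest libraries.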
